A study of Saccharomyces cerevisiae with 24 samples.

Results

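The contrast described here set the effects of 3 DNA-damaging agents, bleomycin, methyl methanesulfonate (MMS) and cisplatin, against those of NaCl and ethanol in budding yeast. Each effect was taken against control arrays of the same day, each agent was given the same weight, and the mean of NaCl and ethanol was subtracted from the mean of the 3 damaging agents. This difference is called the class difference below. Of the 24 arrays of the series, 23 entered it: 3 after bleomycin, 3 after MMS, 2 after cisplatin, 3 after NaCl, 2 after ethanol and 10 controls. Of the 9335 probe sets on the array, the 9275 that are not array controls were tested.

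All cells were strain BY4730, a haploid laboratory strain that lacks LEU2, MET17 and URA3, and every exposure lasted 120 min. Per the titles, the bleomycin dose was 0.1 U/ml for replicate 2 and 0.15 U/ml for the other replicates, and MMS was used at 0.12% (replicates 1 and 2) and 0.14% (replicate 3), and cisplatin at 500 and 650 ug with no volume given. NaCl was used at 10%, 8% and 9% and ethanol at 15%. The protocol text gives NaCl and cisplatin in other units, so their doses are uncertain. Per that text, controls of the damaging agents received DMSO and controls of NaCl and ethanol stayed in medium, but no label says which control array received which, so solvent and class of agent cannot be told apart. Replicates 1 and 2 of bleomycin and of NaCl shared a day and its single control array in pairs, as did bleomycin replicate 3 and cisplatin replicate 2. MMS and ethanol each had days of their own. The title of ethanol replicate 1 carries another year than the control array of its day, and the same day was assumed. No label says that the arrays of a group came from separate cultures, so p-values measure only the spread between these arrays.

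As background, bleomycin breaks DNA strands, MMS methylates bases and cisplatin crosslinks them. In yeast such lesions activate the checkpoint kinases Mec1, Rad53 and Dun1, which relieve the repressor Rfx1 at a small group of genes, among them those of ribonucleotide reductase, the enzyme that makes deoxynucleotides. Many harsh conditions, with or without DNA damage, also change a common program in which stress and carbohydrate-reserve genes rise through Msn2 and Msn4 while genes of ribosome assembly fall.

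Signals are on the log2 scale. In the control arrays URA3 averaged 3.44 ± 0.26 (SD, n = 10) and MET17 3.86 ± 0.19, near the low end of the signals, while the 3 LEU2 probe sets averaged 5.48 to 5.64, in the middle. Genes of a cells were high (MFA1 12.34 and 8.55 on its probe sets, MFA2 11.96, STE2 7.34, BAR1 7.97) and STE3 of alpha cells was low (3.75). MF(ALPHA)1 and MF(ALPHA)2, the pheromone genes of alpha cells, averaged 5.15 and 4.20. Control probe sets at the 5′ and 3′ ends of the actin transcript ACT1 served as a measure of RNA state. The 3′ signal was below 10 on NaCl replicates 2 (7.98) and 3 (8.21) and control replicate 11 (9.37), called the low-3′ arrays, and between 10.55 and 11.95 on the others. The median correlation with the control arrays was 0.703 and 0.685 for those NaCl arrays, 0.814 for control replicate 11 and at least 0.855 for every other array. The ACT1 5′ signal differed from its same-day control by 2.82 to 4.07 on the MMS arrays, by -5.38 and -0.13 on the cisplatin arrays and by -0.53 to 0.95 on the bleomycin arrays, against 0.87, -3.93 and -3.29 on the NaCl arrays and -1.19 and -0.71 on the ethanol arrays. Its class difference was 1.60, and its part in the results was not tested beyond the fits named beside them.

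With all 23 arrays, the 3 damaging agents agreed on few genes. In limma, 1537 of 9275 probe sets (16.6%) had a class difference at an adjusted p under 0.05 (Benjamini-Hochberg). Of these, 925 (9.97%) were higher and 612 (6.6%) lower with the damaging agents than with NaCl and ethanol, and the median over all probe sets was -0.06. The agents were said to agree on a probe set when the class difference and each agent's own difference from the mean of NaCl and ethanol passed the test in 1 direction. This held for 32 probe sets (0.345%), 23 higher and 9 lower. They stood for 29 genes and 3 unnamed probe sets. Every damaging array lay on 1 side of every NaCl and ethanol array, measured against same-day controls, on 29 of the 32 (90.6%), on 343 of the 1537 called (22.3%) and on 357 of all probe sets (3.85%). The same arrays chose the 32, so this share describes them and lends them no support.

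Of the 3 agents, cisplatin passed the test on the fewest probe sets, which limited the count of 32 in this fit. The count also depended on the NaCl arrays. With every cisplatin array kept, 690 probe sets were agreed on without NaCl replicate 1. Against the mean of NaCl and ethanol, limma called 4395 probe sets for MMS (47.4%), 449 for bleomycin (4.84%) and 45 for cisplatin (0.485%, 1013 at an unadjusted p under 0.05). For 311 called probe sets bleomycin and MMS each passed in the direction of the class difference and cisplatin had the same sign, and for 279 of them cisplatin did not pass. The highest adjusted p of cisplatin among the 32 was 0.0488 and the lowest among the 279 was 0.0538. By sign alone, the 3 agents lay on the same side of the mean of NaCl and ethanol for 1399 of the 1537 called probe sets. The 3 differences subtract the same mean and the class difference chose these probe sets, so a shared sign is partly built in. Against control, all 3 agents had the sign of the class difference for 547 of the 1537 and for 21 of the 32.

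Membership in the agreeing set moved with single arrays, while the class difference of its members did not. Without cisplatin replicate 1, or without its control replicate 1, 2 probe sets were agreed on, and without cisplatin replicate 2 there were 3. HSP30 and RGI1 were agreed on with any 1 of the 23 arrays left out, YLR297W in 21 of these fits, AIM17, PIC2 and TMA10 in 20, ECM4 and STF2 in 18, HUG1 in 10 and CLD1 in 4. All 32 kept their class call in each of the 23 fits. On a day with 1 treated array, leaving out that array or its control removes the same comparison. Calls were 633 without control replicate 7 and 637 without ethanol replicate 2, for example. Losses counted over the 23 fits are thus not independent of each other. With ethanol replicate 1 given a day of its own, and so no control array, 745 probe sets were called and 12 agreed on.

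**Figure D1:**
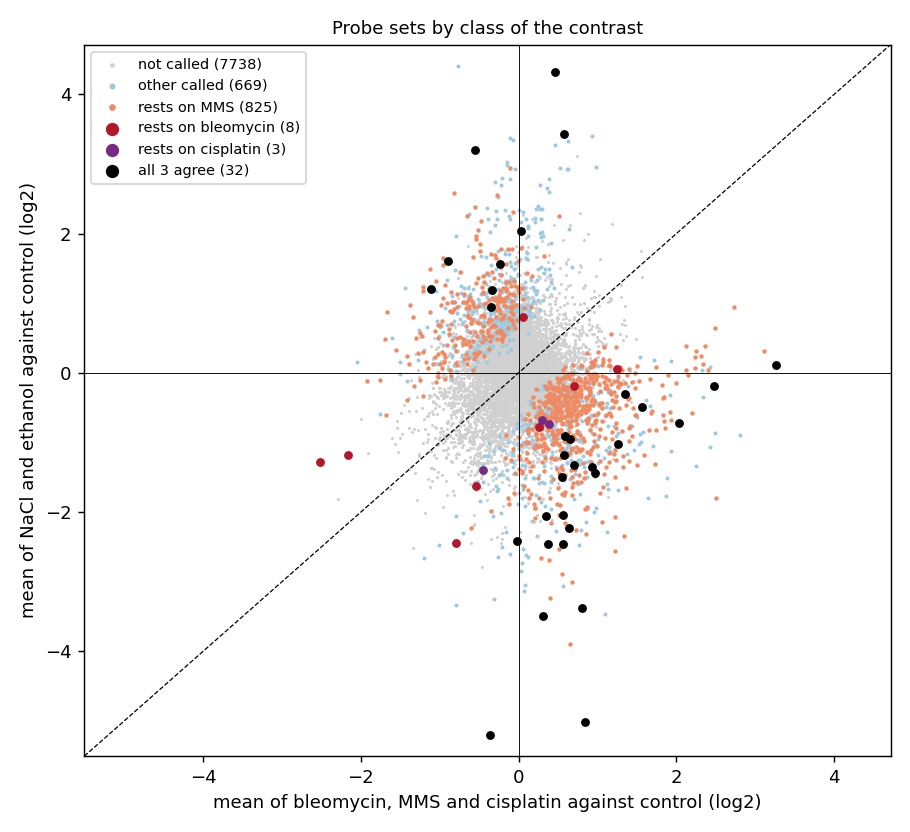
Each point is a probe set, with the mean change under bleomycin, MMS and cisplatin against control on the x axis and the mean change under NaCl and ethanol on the y axis (both log2), coloured by class, and the dashed line marks equal change. The 32 probe sets on which the 3 agents agree lie off this line, and 26 of them lie farther from 0 on the y axis than on the x axis.

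A class difference can come from either side of the contrast. Of the 32 agreeing probe sets, 4 differed from control with the damaging agents only, 16 with NaCl and ethanol only, and 12 with both, in opposite directions. Over the 1537 called probe sets these numbers were 434, 616 and 113, and for 374 neither side passed. Against control, limma called 988 probe sets for the mean of the damaging agents (10.7%) and 1103 for the mean of NaCl and ethanol (11.9%). By agent it called 75 for bleomycin (0.809%), 4226 for MMS (45.6%), 11 for cisplatin (0.119%, 918 at an unadjusted p under 0.05), 4992 for NaCl (53.8%) and 254 for ethanol (2.74%). On 26 of the 32 the mean change with NaCl and ethanol was larger in size than that with the damaging agents. In the direction of the class difference, 5 were called with bleomycin, 16 with MMS and 3 with cisplatin, and 1 was called with MMS in the other direction. In the direction opposite to it, 28 were called with NaCl and 17 with ethanol, 16 of them with both. All 3 agents passed against control on 3 probe sets, those of HUG1, ECM4 and YLR297W.

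HUG1 encodes a small protein of the DNA damage checkpoint that holds back ribonucleotide reductase, and it showed the largest rise with the damaging agents of the genes on which they agree. Its signal was 10.17 to 10.67 with bleomycin, 7.48 to 7.58 with MMS and 7.79 and 8.38 with cisplatin, against 5.76 to 6.41 with NaCl and 4.59 and 4.68 with ethanol. In the 10 control arrays it ran between 4.44 and 5.83 with a median of 5.32. Relative to its same-day control each bleomycin array was higher by 4.47, 4.43 and 4.94, each MMS array by 2.97, 2.51 and 3.09 and each cisplatin array by 2.80 and 2.06. The NaCl arrays differed by 0.71, 0.25 and 0.15 and the ethanol arrays by -0.32 and -0.16, so the damaging and the other arrays did not overlap. The class difference of HUG1 was 3.16 ± 0.24 (SE, adjusted p = 2.97e-05). Its signals with ethanol and on the controls lie in the ranges of deleted URA3 (3.08 to 4.64 over all arrays) and LEU2, so no fold is given. The size of the response differed between the agents: bleomycin exceeded the mean of MMS and cisplatin by 2.07 ± 0.29 (adjusted p = 0.00457), and cisplatin differed from the mean of bleomycin and MMS by -1.46 ± 0.32 (adjusted p = 0.0215).

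ECM4, which encodes a glutathione transferase of the omega class, was higher than its same-day control by 1.78, 1.99 and 1.76 with bleomycin, by 3.51, 2.58 and 3.71 with MMS and by 2.03 and 2.53 with cisplatin. It differed by -0.63, -0.79 and -0.50 with NaCl and by 0.43 and 0.18 with ethanol. The damaging arrays were all above the others, and the class difference was 2.66 ± 0.23 (adjusted p = 5.96e-05). YLR297W, a gene of unknown function, was higher by 2.05, 2.02 and 1.58 with bleomycin, by 2.41, 2.84 and 2.61 with MMS and by 1.93 and 1.05 with cisplatin. With NaCl it was lower by values of -1.11, -1.10 and -1.17, and with ethanol it differed by -0.34 and -0.21. Its class difference was 2.75 ± 0.20 (adjusted p = 2.97e-05). ECM4 and YLR297W each responded more to MMS than to the mean of the other damaging agents, by 1.19 ± 0.32 (adjusted p = 0.0141) and 0.88 ± 0.28 (adjusted p = 0.0276).

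HXT5, a hexose transporter gene known for expression in slowly growing cells, and CLD1, a phospholipase gene of cardiolipin remodelling, completed the 4 agreeing probe sets that moved with the damaging agents only (with HUG1 and ECM4). HXT5 was higher by 1.93 to 2.16 with bleomycin, 0.89 to 1.47 with MMS and 1.21 and 1.61 with cisplatin, against -0.37 to 0.08 with NaCl and -0.82 and -0.91 with ethanol. CLD1 was higher by 0.50 to 1.69 with bleomycin, 1.40 to 1.69 with MMS and 1.06 and 1.51 with cisplatin, against -0.24 to 0.06 with NaCl and -0.38 and -0.48 with ethanol. Neither gene's damaging arrays overlapped the others. The class difference was 2.05 ± 0.21 (adjusted p = 0.000163) for HXT5 and 1.65 ± 0.22 (adjusted p = 0.000777) for CLD1. CLD1 signals were 3.73 to 4.47 on the controls and 3.76 to 4.23 with NaCl and ethanol. These lie in the range of deleted URA3 (3.08 to 4.64). A fall of CLD1 with NaCl or ethanol could thus be missed, and the size of its class difference is uncertain.

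The 4 largest class differences among agreeing genes were of HSP30, RGI1, TMA10 and STF2, and in these NaCl and ethanol lowered a transcript that was abundant in the controls. HSP30 encodes a heat shock protein of the plasma membrane that restrains the proton pump Pma1. Its signal was 10.03 to 10.99 with bleomycin, 11.38 to 11.51 with MMS and 9.07 and 10.64 with cisplatin, against 4.24 to 4.29 with NaCl and 4.67 and 4.90 with ethanol, and its median in the control arrays was 9.71 (8.01 to 10.46). The 5 NaCl and ethanol arrays were thus all below every damaging and every control array. Its class difference was 5.86 ± 0.32 (adjusted p = 4.08e-06), made of 0.85 ± 0.22 for the mean of the damaging agents (adjusted p = 0.0311), led by MMS (2.54), and -5.02 ± 0.27 for the mean of NaCl and ethanol (adjusted p = 1.39e-06). RGI1, a gene of energy metabolism in respiring cells, was 10.34 to 10.59 with bleomycin, 8.94 to 9.11 with MMS and 9.95 and 10.33 with cisplatin, against 4.36 to 6.07 with NaCl and 5.05 and 5.18 with ethanol. Here the damaging mean did not pass the test (-0.37 ± 0.23, adjusted p = 0.371) and MMS alone was below control (-1.31, adjusted p = 0.0106). The class difference of RGI1 was 4.84 ± 0.33 (adjusted p = 2.62e-05). With NaCl and ethanol HSP30 and RGI1 had signals in the range of the deleted genes URA3 (3.08 to 4.64 over all arrays) and LEU2, so they are not shown to be above background there and no fold is given.

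TMA10 and STF2 are paralogs, TMA10 named for its association with ribosomes and STF2 for the F1F0-ATP synthase. TMA10 differed from its same-day control by 0.54 to 0.60 with bleomycin, 1.05 to 1.62 with MMS and 0.25 and 0.71 with cisplatin, against -3.69 to -1.91 with NaCl and -3.74 and -3.99 with ethanol. STF2 differed by 0.31 to 0.57 with bleomycin, -0.15 to 1.48 with MMS and -0.33 and 0.43 with cisplatin, against -3.97 to -3.03 with NaCl and -3.13 and -3.54 with ethanol. Their class differences were 4.19 ± 0.32 (adjusted p = 2.97e-05) and 3.79 ± 0.33 (adjusted p = 5.96e-05). For STF2 the mean of the damaging agents did not differ from control at the threshold (0.31, adjusted p = 0.464).

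**Figure D2:**
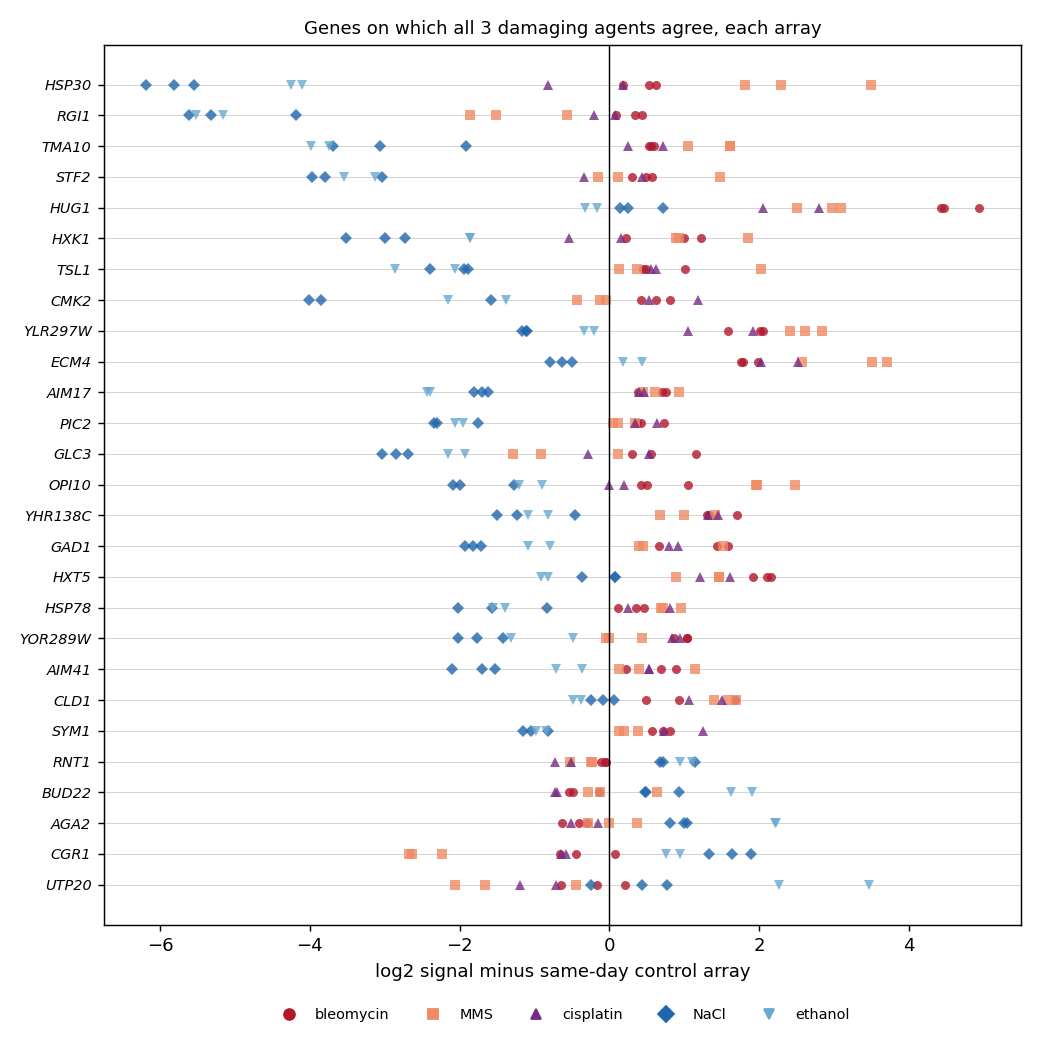
The x axis gives the log2 signal of each treated array minus its same-day control array, and each row is 1 of the 27 agreeing genes whose standing probe set passed, ordered by class difference. HUG1, ECM4, YLR297W, HXT5 and CLD1 have their damaging arrays right of 0 and apart from the NaCl and ethanol arrays, whereas HSP30, RGI1, TMA10 and STF2 have NaCl and ethanol arrays far left of 0.

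The other agreeing genes that were higher had smaller class differences. TSL1, of the trehalose synthase complex, had a class difference of 2.87, HXK1, a hexokinase gene, of 3.02, and GLC3, the glycogen branching enzyme gene, of 2.40. For these genes the mean of the damaging agents did not pass the test (0.64, 0.56 and -0.02, adjusted p = 0.102, 0.0914 and 0.975), while all 3 fell with NaCl (-2.0, -3.05 and -2.79) and ethanol (-2.46, -1.86 and -2.04). Class differences were 2.61 for AIM17, 2.40 for PIC2, a mitochondrial carrier of phosphate and copper, 2.05 for HSP78, a mitochondrial disaggregase, 1.76 for AIM41 and 1.60 for SYM1, of the mitochondrial inner membrane. AIM17, AIM41 and SYM1 passed on both sides, PIC2 and HSP78 with NaCl and ethanol only. GAD1, the glutamate decarboxylase gene, was higher with bleomycin, MMS and cisplatin (1.22, 0.79 and 0.76) and lower with NaCl and ethanol (-1.75 and -0.94), and YHR138C, related to a proteinase B inhibitor, showed the same signs (1.36, 1.03 and 1.41, against -1.08 and -0.95). CMK2, a calmodulin-dependent kinase gene, had a class difference of 2.82, OPI10 of 2.40 and YOR289W of 2.03. SYM1 has another probe set, and its class difference of 2.01 rested on MMS.

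The genes whose standing probe set was agreed on and lower were CGR1, BUD22, RNT1, UTP20 and AGA2, and of these UTP20 alone is in the ribosome biogenesis list, of which 1 of 74 was agreed on. CGR1, which acts in the maturation of the large ribosomal subunit, differed from its same-day control by 0.08, -0.45 and -0.65 with bleomycin, by -2.23, -2.63 and -2.68 with MMS and by -0.58 and -0.65 with cisplatin, against 1.65, 1.33 and 1.89 with NaCl and 0.75 and 0.94 with ethanol. The 2 sets did not overlap, and the class difference of CGR1 was -2.31 ± 0.22 (adjusted p = 0.000113). BUD22, which acts in the maturation of the small subunit, had a class difference of -1.53 ± 0.22 (adjusted p = 0.00102), and its damaging arrays (-0.72 to 0.64) overlapped the others (0.47 to 1.90). RNT1, the RNase III gene that processes ribosomal and small nucleolar RNA, had one of -1.29 ± 0.20 (adjusted p = 0.00153) without overlap. UTP20, of the small subunit processome, was at -2.50 ± 0.34 on the probe set that stands for it, but its damaging arrays overlapped the others and none of its 9 other probe sets was called (-0.63 to 0.06). AGA2, the binding subunit of a-agglutinin in mating, was at -1.80 ± 0.22 (adjusted p = 0.000487), with ethanol at 2.22 and NaCl at 0.90. The remaining agreeing probe sets were 1 of MEO1 (1.5), 1 of the 4 of YMR230W-A (-3.75) and 3 unnamed ones (-3.87, -2.85 and -2.0).

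With all 23 arrays and the day as block, 53.7% of the class difference calls rested on MMS. A probe set was said to rest on an agent when its class difference lost the call once that agent was left out and the agent differed from the mean of the other damaging agents in the same direction. This held for 836 probe sets (9.01%), 825 for MMS (53.7% of the 1537 called), 8 for bleomycin and 3 for cisplatin. Another 669 called probe sets fell in neither class. The ACT1 5′ signal of the MMS arrays (8.35 to 8.83) lay inside the range of the control arrays (4.76 to 10.56). It was above that of their same-day controls (4.76 to 5.93). The share resting on MMS was lower in other fits, with 164 of 863 calls with that signal as a covariate and 381 of 1631 with its class in place of the day. The share was also lower without the low-3′ arrays, although the number resting on MMS was not. Leaving MMS out of the mean left 359 calls in all (3.87%), leaving bleomycin out left 1764 (19%) and leaving cisplatin out left 2963 (31.9%). Of the 1537 calls, 1202 (78.2%) were lost without MMS, 138 (8.98%) without bleomycin and 31 (2.02%) without cisplatin. MMS differed from the mean of bleomycin and cisplatin on 3627 probe sets (39.1%), cisplatin from the mean of bleomycin and MMS on 667 (7.19%), and bleomycin from the mean of MMS and cisplatin on 278 (3%). Of the 32 agreeing probe sets, all kept their class call against NaCl alone and 29 against ethanol alone.

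**Figure D3:**
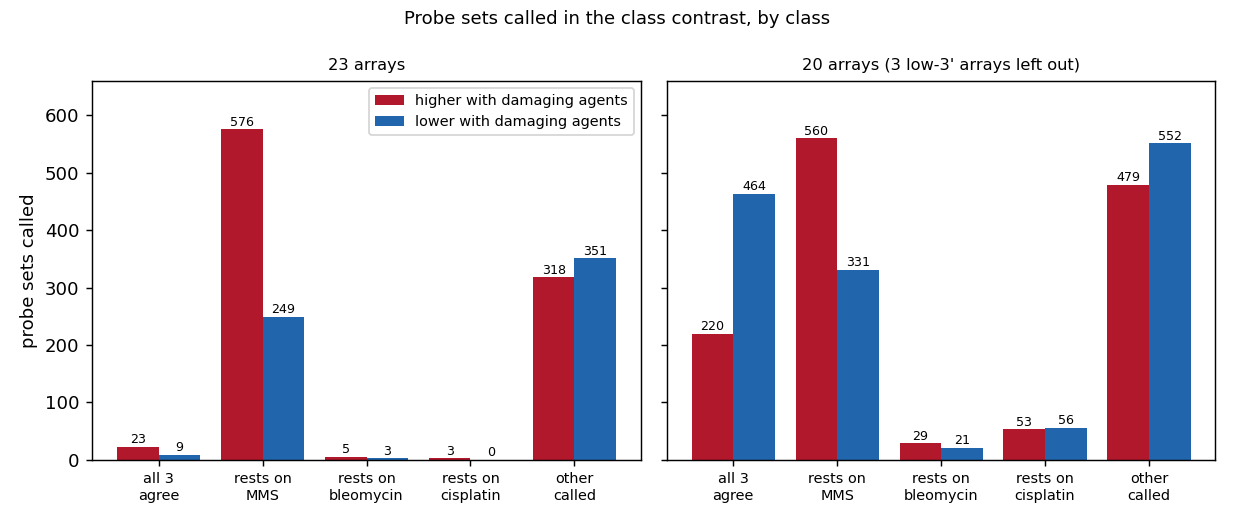
Bars count probe sets called in the class contrast by class, higher (red) or lower (blue) with the damaging agents, in the 23 arrays (left) and with the 3 low-3′ arrays left out (right). In 23 arrays 32 probe sets are agreed on and 825 rest on MMS. With the low-3′ arrays left out more are agreed on, and the number resting on MMS is not lower.

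Among the genes that rest on MMS, the 5 highest were ENO2 (4.55 ± 1.09), RNR4 (4.30 ± 0.69), HSP42 (3.78 ± 0.60), PGK1 (3.69 ± 0.67) and GLK1 (3.68 ± 0.54). ENO2 and PGK1 encode abundant glycolytic enzymes. ENO2 was higher than its same-day control by 4.92 to 5.79 with MMS, while it differed by -2.12, 0.09 and 0.27 with bleomycin, by -4.37 and -0.22 with cisplatin, by -2.47, -8.21 and -6.89 with NaCl and by -1.03 and -2.97 with ethanol. The ENO2 signal with MMS was 11.92 to 12.21, against 6.27 to 7.26 on control replicates 9 to 11, of the MMS days. Control replicates 1 to 5, of the bleomycin, cisplatin and NaCl days, had 11.62 to 12.53 without any agent. PGK1 was alike. It had 12.25 to 12.41 with MMS, 8.14 to 8.30 on control replicates 9 to 11 and 11.96 to 12.32 on replicates 1 to 5. The arrays with the lowest ENO2 relative to control, NaCl replicates 2 and 3 and cisplatin replicate 1, also had the lowest ACT1 5′ signal relative to control. With that signal as a covariate ENO2 was no longer called (2.94, adjusted p = 0.0519) and its MMS effect was 2.30, against 5.45 without it. ENO2 also lost its call without control replicate 7, ethanol replicate 2 or cisplatin replicate 2, and stood between 3.64 and 5.74 over all 23 fits with 1 array left out. GTT2, a glutathione transferase gene, had the largest response to 1 agent of the genes named here. It was higher by 6.61 to 7.42 with MMS, against 0.70 to 1.48 with bleomycin, 0.48 and 2.52 with cisplatin, -1.50 to 0.27 with NaCl and 1.31 on both arrays with ethanol. The iron-related genes ISU2 (1.64), TIS11 (1.69) and FIT2 (2.06) also rested on MMS, as did the proteasome genes PRE5 (3.01), RPT3 (2.56) and PRE8 (2.43). RPT3 was higher by 4.49 to 5.95 on the MMS arrays and lay between -0.21 and 0.89 on the bleomycin and cisplatin arrays. PRE5 lost its call in 16 of the 23 fits with 1 array left out and RPT3 in 5 (without control replicate 6 or 7, ethanol replicate 1 or 2, or cisplatin replicate 2), while PRE8 kept it in all. With the ACT1 5′ covariate the adjusted p was 0.179 for PRE5, 0.0801 for RPT3 and 0.0282 for PRE8. Without the low-3′ arrays the class differences of PRE5, RPT3 and PRE8 were smaller, at 1.02, 1.24 and 1.48 (adjusted p = 0.00353, 0.00246 and 0.00154).

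The 5 lowest that rest on MMS were YLR285C-A (-2.61), the acid phosphatase gene PHO3 (-2.55), SNR75 (-2.44), EFG1 (-2.39), of ribosomal RNA processing, and SNR67 (-2.15). PHO3 was lower by values of -4.83, -5.73 and -4.75 on the MMS arrays, and lay between -0.41 and 0.47 with bleomycin, at 0.55 and -1.03 with cisplatin, between 0.09 and 2.54 with NaCl and at 0.00 and 0.45 with ethanol. SNR75 and SNR67 encode small nucleolar RNAs, guides for chemical marks on ribosomal RNA. SNR75 was at -5.83 to -3.44 on the MMS arrays and at 2.26 and 0.04 with cisplatin, against -1.52 to 2.34 with NaCl. The arrays were made from poly(A)+ RNA, and how their signals relate to the mature guides was not tested.

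Genes that rest on bleomycin included the damage marker RNR3 and genes of daughter cell separation. RNR3 encodes the damage-induced large subunit of ribonucleotide reductase. It was higher than its same-day control by 1.39, 2.20 and 2.63 with bleomycin, by 0.90, 0.43 and 0.98 with MMS and by 0.81 and 1.09 with cisplatin, against -0.05, 0.81 and 1.11 with NaCl and -0.75 and -0.42 with ethanol. NaCl overlapped the damaging agents, and its rise passed the test (0.70, adjusted p = 0.0355). That rise came from the low-3′ replicates 2 and 3, and without the low-3′ arrays the NaCl effect on RNR3 was 0.31, from replicate 1 alone. The class difference of RNR3 was 1.19 ± 0.25 (adjusted p = 0.00753), and without bleomycin it was 0.74 (adjusted p = 0.0844). Bleomycin exceeded the mean of MMS and cisplatin by 1.34 ± 0.29 (adjusted p = 0.0347).

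EGT2 and DSE2 act in the separation of daughter cells, with transcription early in G1. EGT2 was lower than its same-day control by values of -3.71, -2.97 and -3.30 with bleomycin, -2.34, -1.55 and -2.30 with MMS and -2.36 and -1.98 with cisplatin, and of -2.50, -2.59 and -2.34 with NaCl. With ethanol it differed by 0.30 and -0.48. Each of the 4 agents other than ethanol thus lowered it, and the class difference of EGT2 (-1.23 ± 0.24, adjusted p = 0.00562) was -0.03 against NaCl alone and -2.43 against ethanol alone. DSE2 was lower by values of -3.25, -3.26 and -3.62 with bleomycin, against -2.30 to -1.77 with MMS and -1.18 and -0.94 with cisplatin. The DSE2 signal itself was 7.08 to 7.29 with bleomycin and 6.68 to 6.82 with MMS. Its same-day controls had 10.34 to 10.73 and 8.47 to 8.98, in that order. EGT2 had 3.85 to 4.19 and 4.02 to 4.31, against 7.15 to 7.56 and 5.86 to 6.42 on those controls. With both agents EGT2 was thus in the range of deleted URA3 (3.08 to 4.64), so how far it fell is not shown. The part of this split between controls in the larger bleomycin effects was not tested. In such cultures fewer cells in a stage of the cycle and less RNA per cell cannot be told apart. The other genes resting on bleomycin were SPG1 (0.90, higher with bleomycin by 1.83 to 2.08), COX26 (1.08, a cytochrome c oxidase subunit), HAB1 (1.04) and NFG1 (-0.74). COX26, HAB1 and NFG1 moved the other way with MMS (-2.40, -1.07 and 1.88). Of the 23 fits with 1 array left out, NFG1 lost its call in 17, SPG1 and DSE2 in 6 each and HAB1 in 5. RNR3 and COX26 lost theirs in 2 each, while EGT2 kept its call in all. The genes resting on cisplatin were ADI1, of methionine salvage (1.11 ± 0.24, adjusted p = 0.00899), YPR145C-A (0.98 ± 0.26, adjusted p = 0.0269) and TRA1. ADI1 was higher by 1.75 and 0.73 with cisplatin and lower with MMS (-0.76 to -0.53) and NaCl (-1.30 to -0.79). The probe set of TRA1 does not stand for its gene. YPR145C-A lost its call in 8 of the 23 fits with 1 array left out and ADI1 in 2. With the ACT1 5′ signal as a covariate 0 probe sets rested on cisplatin.

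Of the 15 measured genes of the DNA damage response, 7 were higher and none lower in the class contrast, beside 14.5% of all 5656 genes higher and 5.6% lower. The median class difference was 0.92, against 0.15 over all genes. Against control the medians were 0.65 with bleomycin, 1.33 with MMS and 0.68 with cisplatin, and 0.04 with NaCl and -0.24 with ethanol. With all 3 damaging agents 12 of the 15 lay above control, beside 862 of all 5656 genes. HUG1 was agreed on, RNR3 rested on bleomycin, and RNR4, RAD16 and DDI1 rested on MMS, while RNR2 and MAG1 were in neither class. Without MMS in the mean 4 were higher, beside 3.47% of genes higher and 1.49% lower.

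Within ribonucleotide reductase the 4 subunit genes differed. RNR2, the small subunit, was higher by 2.12 to 2.22 with bleomycin, 3.58 to 4.32 with MMS and 1.64 and 1.45 with cisplatin, against -0.28, -2.66 and -2.54 with NaCl and 0.32 and -0.22 with ethanol. The damaging arrays were above the others, and the class difference of RNR2 was 3.35 ± 0.41 (adjusted p = 0.000481), but cisplatin alone did not pass against NaCl and ethanol (2.36, adjusted p = 0.112). RNR4, the partner of RNR2, was higher by 1.64 to 2.02 with bleomycin, 5.11 to 5.80 with MMS and 0.12 and 1.39 with cisplatin, against -0.08, -4.25 and -4.72 with NaCl and -0.35 and -0.94 with ethanol. In both genes the low values with NaCl came from the low-3′ replicates 2 and 3. The RNR4 signal itself was 10.81 to 11.07 with bleomycin and 10.79 to 11.01 with MMS. Control replicates 9 to 11, of the MMS days, had 5.2 to 5.9. Control replicates 1 to 5, of the bleomycin, cisplatin and NaCl days, had 8.99 to 9.58. The part of this split between control arrays in the larger MMS effect was not tested. RNR1, the constitutive large subunit, was not called (0.62 ± 0.39, adjusted p = 0.283).

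Of the repair genes, MAG1, whose glycosylase removes alkylated bases, had a class difference of 1.71 ± 0.30 (adjusted p = 0.00355). It was higher by 1.46 to 2.44 with MMS, 1.22 and 1.66 with cisplatin and 0.30 to 0.82 with bleomycin, against -0.88, 0.73 and 0.61 with NaCl and -0.93 and -0.56 with ethanol. RAD54, of homologous recombination, was above control on every damaging array (0.54 to 1.44) and passed there (1.00, adjusted p = 0.00101), but ethanol was as high (1.23 and 0.78) and the class difference was 0.48 ± 0.20 (adjusted p = 0.129). RAD16, of nucleotide excision repair, rested on MMS (adjusted p = 0.00389). Its signal was 4.5 to 4.64 with MMS and 2.05 to 3.25 on the other arrays. These lie near or below the signals of deleted URA3 (3.08 to 4.64), so no size of its difference is given. RAD2 was not called (0.55, adjusted p = 0.252). The checkpoint kinase gene DUN1 was higher by 0.59 to 1.20 with bleomycin and 1.26 and 1.08 with cisplatin and lay between -0.68 and 0.26 with MMS, against 0.37, 0.94 and 1.56 with NaCl and -0.34 and -0.12 with ethanol. Its class difference was 0.33 ± 0.28 (adjusted p = 0.415), and that of DIN7, a mitochondrial nuclease gene, was 0.42 (adjusted p = 0.337). DIN7 differed from control by 0.30, 1.55 and 1.12 with NaCl, and for both genes the higher values were on the low-3′ replicates 2 and 3. Without the low-3′ arrays, which leaves NaCl with replicate 1 alone, the class differences of DUN1 and DIN7 were 0.77 and 0.93. Of 16 checkpoint genes 2 were lower, MEC1 (-1.43 on its standing probe set, 8 others not called) and RAD9, beside 5.6% of all genes, and none of 12 recombination genes was called. RAD9 had signals of 2.96 to 3.52 on the damaging arrays, in the range of deleted URA3, against 4.01 to 4.75 on the NaCl and ethanol arrays, so no size of its difference is given. In nucleotide excision repair 1 of 17 was higher and in the list of base excision and post-replication repair genes 1 of 18 was too, both below the 14.5% of all genes.

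**Figure D4:**
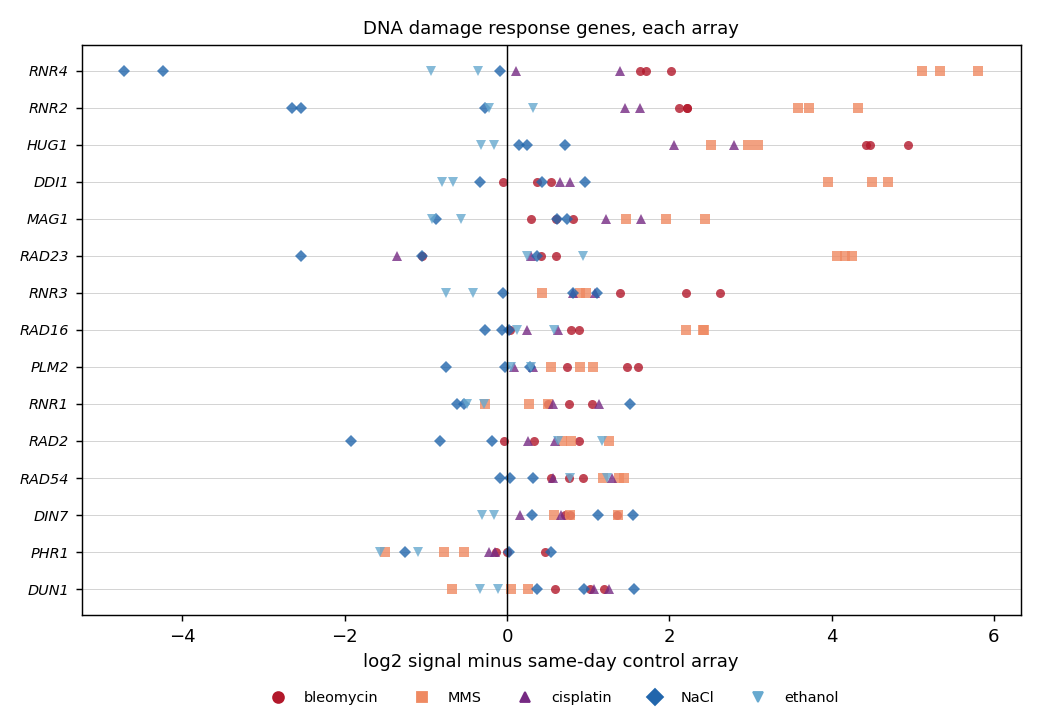
The x axis gives the log2 signal of each treated array minus its same-day control array for the 15 measured genes of the DNA damage response, 1 row a gene, ordered by class difference. HUG1 and RNR2 have every damaging array above the others, RNR4 too, while DUN1, DIN7 and RAD54 overlap with NaCl or ethanol arrays.

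General stress genes gave the highest median class difference of the 28 lists. Of 26 members 23 were higher and 0 lower (median 2.62), beside 14.5% and 5.6% of all genes. The medians against control were 0.71 with bleomycin, 1.74 with MMS and 0.40 with cisplatin, against -2.11 with NaCl and -1.01 with ethanol. Leaving out the low-3′ arrays, which leaves NaCl with replicate 1 alone, gave a NaCl median of -1.24. Without MMS 18 were higher, beside 3.47% of all genes. HSP12, a membrane stress protein gene, was higher by 1.72 to 2.72 with bleomycin, 2.80 to 4.11 with MMS and 1.47 and 1.34 with cisplatin, against 0.17, -2.98 and -3.74 with NaCl and -0.27 and -0.62 with ethanol. The low HSP12 values with NaCl came from the low-3′ replicates 2 and 3. Without the low-3′ arrays the NaCl effect on HSP12 was 0.14. HSP26, a small heat shock gene, had a class difference of 3.70 ± 0.35 (adjusted p = 9.91e-05) and PGM2, a phosphoglucomutase gene, of 4.56 ± 0.71 (adjusted p = 0.00163). For HSP12, HSP26 and PGM2 cisplatin alone did not pass against NaCl and ethanol (adjusted p = 0.204, 0.0924 and 0.071). CTT1, a catalase gene of the same program, was not called (0.91 ± 0.30, adjusted p = 0.0594), nor was GPD1 of glycerol synthesis, itself known to rise in osmotic stress (0.34, adjusted p = 0.388).

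The counts of the other lists stand beside 14.5% of all 5656 genes higher and 5.6% lower, 3.47% higher without MMS and 27 genes agreed on. Of stationary-phase genes 13 of 16 were higher (median 2.09), 5 were agreed on and 9 were higher without MMS, and of trehalose and glycogen genes 13 of 17 were higher (median 2.03). Their medians with NaCl were -1.12 and -2.0, against -0.39 over all genes, and without the low-3′ arrays -0.37 and -1.18, against -0.05 over all genes. Heat shock and chaperone genes (17 of 24 higher, median 1.99) and oxidative stress genes (20 of 28 higher, median 1.93) had medians near control with bleomycin (0.02 and 0.25) and cisplatin (-0.08 and 0.47) and high medians with MMS (2.24 and 3.10), while those with NaCl were -1.92 and -1.19 (-0.51 and -0.07 without the low-3′ arrays), and 11 and 14 of them rested on MMS. Of 34 proteasome genes 17 were higher (median 1.54), 15 rested on MMS and 0 were higher without MMS. Of 25 iron regulon genes 9 were higher (median 0.62) and all 9 rested on MMS. Glycolysis and fermentation genes (9 of 19 higher, median 1.61) had a median of -3.05 with NaCl, and without the low-3′ arrays that median was -0.97 and the class median 0.86. Respiration genes had 9 of 41 higher, osmotic stress genes 7 of 19, ion transport genes 2 higher and 2 lower of 12, cytosolic ribosomal protein genes 10 higher and 3 lower of 80, amino acid biosynthesis genes 5 higher and 4 lower of 44, cell wall genes 3 higher and 1 lower of 22 and sulfur genes 1 of 21. None of 22 ergosterol genes and none of 4 measured histone genes was called. Without the low-3′ arrays 8 ergosterol genes and 3 histone genes were lower, ribosomal protein genes were 8 higher and 17 lower (median -0.28 in place of 0.60) and amino acid biosynthesis genes 3 higher and 13 lower (median -0.35 in place of 0.33), beside 19% of all genes higher and 19.2% lower.

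Lower lists were those of ribosome assembly, small nucleolar RNAs and cell division. Of 74 ribosome biogenesis genes 28 were lower and 0 higher (median -1.05), and with all 3 damaging agents 50 of the 74 lay below control, beside 5.6% of all genes lower and 814 of 5656 below control with all 3. The medians against control were -0.59 with bleomycin, -0.48 with MMS and -0.78 with cisplatin, against -0.24 with NaCl and 1.23 with ethanol. NOP58, of small nucleolar ribonucleoproteins, was lower by values of -0.64 to -0.23 with bleomycin, -2.44 to -2.07 with MMS and -0.57 and -0.23 with cisplatin, and was higher with NaCl (0.51 to 1.60) and ethanol (1.74 and 1.17), so the 2 sets did not overlap (-2.23 ± 0.29, adjusted p = 0.00065). Of 61 small nucleolar RNA genes 20 were lower, 16 of them resting on MMS, with medians of -2.85 with MMS and between -0.19 and 0.33 with each other agent, although the NaCl median was -1.12 without the low-3′ arrays. Of 18 cell separation genes 4 were lower and 1 higher, and their medians were -1.67 with bleomycin, -0.27 with MMS and -0.94 with cisplatin, against -1.15 with NaCl and -0.07 with ethanol. SCW11, a cell wall glucanase gene of daughter cells, was lower by values of -2.69 to -1.23 on the damaging arrays, against -1.24 to -0.96 with NaCl and 0.09 and -0.20 with ethanol (class difference -1.17 ± 0.21, adjusted p = 0.00331). Of 12 G2/M genes 4 were lower and of 24 G1/S and replication genes 4 were lower and 1 higher, with the cyclin gene CLN1 at -1.65 ± 0.23 (adjusted p = 0.000881). Meiosis genes had 1 higher and 1 lower of 15.

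**Figure D5:**
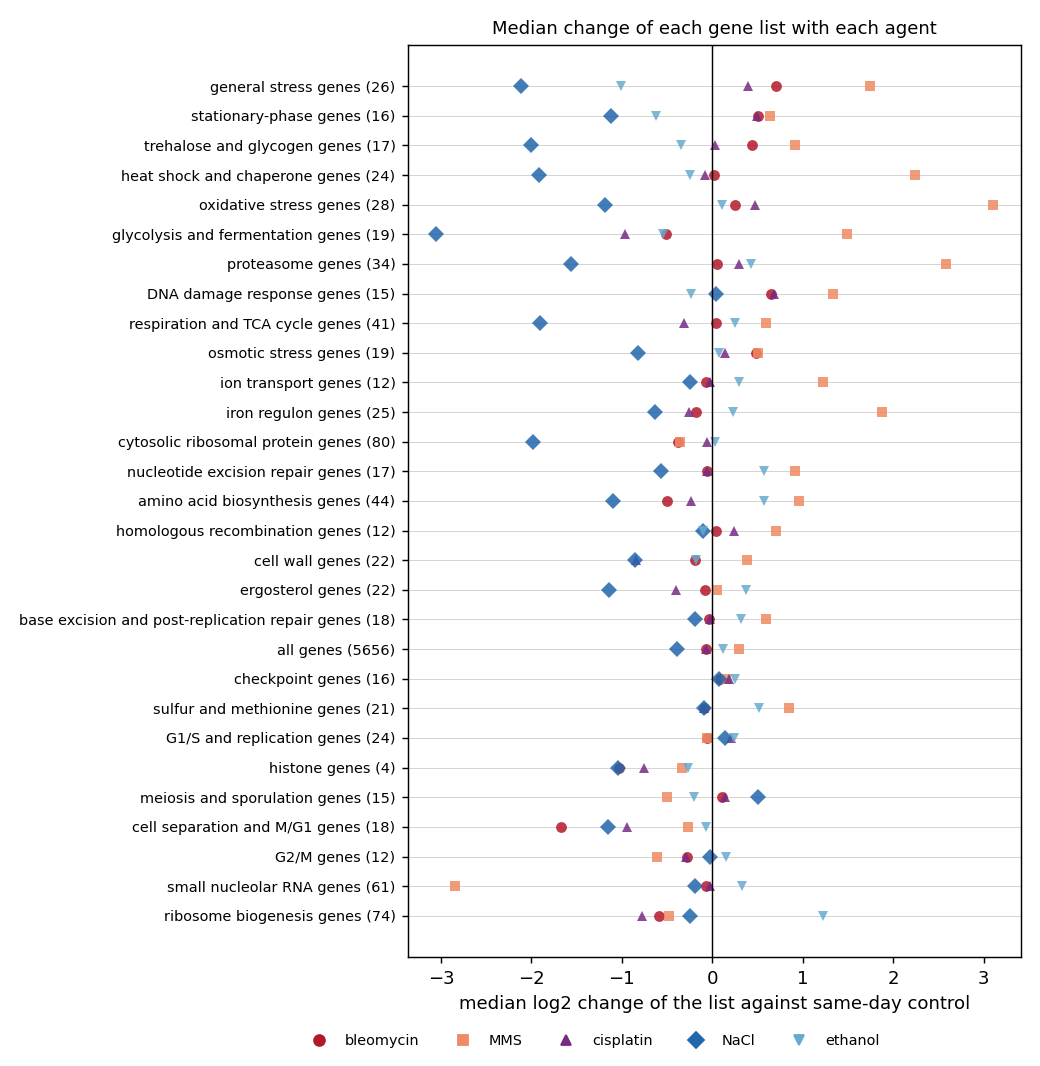
The x axis gives the median log2 change against same-day control of each gene list (number of measured genes in brackets) with each of the 5 agents, and rows are ordered by median class difference. General stress and trehalose lists spread from MMS on the right to NaCl on the left, the DNA damage response list has its 3 damaging agents right of NaCl and ethanol, and ribosome biogenesis has ethanol at 1.23 and the other agents below 0.

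The number of probe sets agreed on moved with the NaCl arrays used. It was 690 without NaCl replicate 1, 27 without replicate 2, 22 without replicate 3 and 40 without control replicate 11. With the 3 low-3′ arrays left out, NaCl rests on replicate 1 alone, MMS replicate 2 loses its control, and 5 residual degrees of freedom remain. In that fit limma called 2765 probe sets in the class contrast (29.8%), 1341 higher and 1424 lower, and 684 were agreed on (7.37%), 220 higher and 464 lower. All 32 agreeing probe sets were among them, and 1387 of the 1537 called kept their call. Of the 684, 105 passed with the damaging agents only, 246 with NaCl and ethanol only and 333 with both. Per gene 19% were higher, 19.2% were lower and 10.5% were agreed on. Of the 74 ribosome biogenesis genes 72 were lower there and 58 were agreed on, with a median of -1.92, and their NaCl median was 1.06 in place of -0.24. Of the 26 general stress genes 23 were higher and 19 agreed on, and of the 15 damage response genes 10 were higher and 6 agreed on, among them RNR2, RNR3, RNR4 and MAG1. HSP12 (2.32), HSP26 (3.25) and PGM2 (3.29) joined the agreeing genes too. In the proteasome list 16 of 34 were higher and 0 agreed on. Leaving out NaCl replicate 1 alone gave 4998 calls.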

How the data were processed

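RNA of 24 samples was measured on 1-colour Affymetrix S98 arrays. Per the labels' protocols, total RNA was extracted with hot phenol, poly(A)+ RNA was selected, cDNA was primed with oligo(dT)-T7 and biotinylated cRNA was hybridised. The authors deposited log2 signals per probe set (1.42 to 14.4), and how they summarised and normalized them is not given in the sources used here. Precision is limited by the small number of arrays.

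The deposited log2 values were quantile normalized across 23 arrays, and 1 per-sample column (control replicate 8, with no treated array of its day) was not used. limma 3.58.1 in R 4.3.3 fitted 5 agent terms and 10 days as a fixed block (lmFit, eBayes with trend, 8 residual and 3.97 prior degrees of freedom). p-values were adjusted by Benjamini-Hochberg over 9275 probe sets, with 0.05 as the threshold. Values of single arrays are differences from the same-day control array, while agent effects come from the fit and so can differ from their mean. The day pairs arrays through the dates in the titles; over 13 pairs of same-day arrays the correlation of deviations from group means ran between -0.622 and 0.769, 6 over 0.1 and 5 under -0.1, so the pairing rests on the labels. No 2 arrays held identical values.

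The platform table paired 6504 probe sets with 1 gene, 328 with several and listed no gene for 2443. For each of 5656 genes the probe set of highest mean signal stands for the gene, and gene lists use these. Named genes were the 12 highest and 12 lowest agreed on by the smallest agent difference, the 5 highest and 5 lowest resting on each agent, the 6 highest and 6 lowest other calls, up to 3 called members of each of 28 lists, and 18 preset genes, of which 2 are not reported here. Other agreeing genes, TRA1, DDI1 and second probe sets were named after their values were seen. Members and lists were chosen with earlier results of these data known. Promoter motifs were not analysed here. The fit was tested on simulated data. Alternatives covered normalization, filters, pseudocount, block, trend, weights, RNA state, thresholds, agents and each array left out. Figures were drawn with matplotlib 3.10.9 in Python 3.11.15.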

Additional observations from a re-analysis of the deposited data

Results flagged for a closer look

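In 21 of 109 named genes 1 of the 10 control arrays lay apart from the others, measured as its gap to the nearest control array divided by the whole range (Dixon's ratio). Chance marks about 1 in 20 groups, and the genes share the same arrays.

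Control replicate 11, 1 of the low-3′ arrays, was the array apart in 13 of them. It was the lowest for TSL1 (ratio 0.616), GAD1 (0.518), HSP42 (0.542), PRE5 (0.475), GCY1 (0.4663), GSY2 (0.498), CIT1 (0.502), ASN2 (0.6445), HSP104 (0.56) and GLC3 (0.566). It was the highest for YMR230W-A (0.591), RAD9 (0.573) and ECM4 (0.601). The ECM4 signal there was 6.0, with the next control at 5.06, and MMS replicate 2, whose day it shares, had the smallest ECM4 difference of the MMS arrays.

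Control replicate 7, of the day of ethanol replicate 2, was the lowest for UTP20 (0.477), YPR145C-A (0.527), TRM8 (0.711), PRX1 (0.4705) and NOP53 (0.502). Its UTP20 signal was 3.50, with the next at 4.68. Control replicate 10 was the highest for CMK2 (0.532), control replicate 1 the lowest for ADI1 (0.554) and control replicate 2 the lowest for NOP58 (0.4998).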

How the results depend on the processing

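The main results are 1537 called probe sets, 32 agreed on, 836 resting on 1 agent, 547 called with the damaging side moved and 729 with the NaCl and ethanol side moved, and 22 other settings were tried. With each array left out in turn these ran between 633 and 4998, 2 and 690, 377 and 2380, 229 and 1626, and 133 and 3791. The highest came without NaCl replicate 1 each time, the lowest count of calls without control replicate 7. Without the replicate block that pairs arrays by day the first 2 and the last 2 counts were 4339, 400, 1168 and 1242, and with day as a random block 4238, 382, 1171 and 1296. With ethanol replicate 1 on its own day the 5 counts were 745, 12, 398, 308 and 234, and at an adjusted p under 0.01 they were 627, 9, 288, 215 and 222. Without the 3 low-3′ arrays, calls were 2765, agreed on 684 and sides moved 1473 and 1504. With the ACT1 5′ signal as a covariate, calls were 863, agreed on 20, resting on 1 agent 170 and the NaCl and ethanol side 269, and with its class in place of the day 280 were agreed on and 408 rested on 1 agent. Agreed-on counts were 50 with a filter at the 40th percentile, 62 without a trend and 66 with 1 probe set per gene. With arrays weighted equally 2907 were called and 1676 rested on 1 agent. At a minimum of 2-fold the sides moved were 217 and 461. Calls were 359 without MMS, 2963 without cisplatin, 5204 against NaCl alone, 465 against ethanol alone, and 2589 without both the low-3′ arrays and MMS, a setting chosen after seeing the data. The cause was not tested for any of these.

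For the named genes, 2083 of 2384 values under other settings kept direction and side of the threshold, 260 lost the call and 22 gained it, and with single arrays left out 2199 of 2507 kept both, 303 lost the call and none changed sign. Of 109 genes 38 kept both throughout, among them HSP30, RGI1, HUG1, ECM4 and YLR297W. ISU2 changed sign without MMS (-0.56). Without both the low-3′ arrays and MMS, signs changed for ISU2 (-1.28), SNR75 (0.31), RPT3 (-0.23), PRE8 (-0.10), TIS11 (-0.16), SED1 (-0.68), HSP150 (-0.42), ARG4 (-0.37), ASN2 (-0.22), MET2 (-0.022) and SPR6 (-0.13), of which ISU2 passed the test.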
